A study of Homo sapiens with 6 samples.

Results

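Phospholipid acyl remodelling and ceramide breakdown were followed through 6 genes, MBOAT1, LPGAT1, ACSL1, ACSL4, AGK and ACER2, in MDA-MB-231 cells that had received an siRNA against ATM, an siRNA against p53 or a control siRNA. The 6 were chosen from a list by name, with their values in these arrays known, and are 6 of the 14884 genes named on the array. Their levels and differences are therefore given as a description, with no p-value. Each of the 6 has a single probe set in the annotation used, so no second probe set of the gene could be set against it.

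MDA-MB-231 is a human triple-negative breast cancer cell line that carries a mutant p53. The groups were siATM (2 arrays), sip53 (2 arrays) and siNC, the control siRNA (2 arrays), and all cells were transfected with Lipofectamine RNAiMAX and grown in DMEM with serum. The sample titles name only the target of each siRNA. The labels give no siRNA sequence, dose or time of harvest. Whether replicates were separate cultures is not stated, so every p-value below rests on a replicate spread that may be technical only.

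Membrane phospholipids are rebuilt after their synthesis by a cycle in which a phospholipase removes a fatty acid and an acyltransferase puts another in its place. The fatty acid must be activated to its acyl-CoA by an acyl-CoA synthetase, and the choice of synthetase and acyltransferase sets how saturated the membrane is. MBOAT1 and LPGAT1 are acyltransferases of lysophospholipids, and ACSL1 and ACSL4 are long-chain acyl-CoA synthetases. AGK, the mitochondrial acylglycerol kinase, makes lysophosphatidic and phosphatidic acid. ACER2 is the Golgi alkaline ceramidase, which splits ceramide into sphingosine and a fatty acid.

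The start-site windows of 4 of the genes are shown, set side by side by the order of their group means. AGK and ACER2 were lower with siATM and higher with sip53 than with siNC. MBOAT1, for which no window was found, had the same order. LPGAT1 and ACSL4 were lower with both siRNAs. The siATM and siNC arrays of ACER2 and of ACSL4 lay close, as given below. Each window runs from 250 bases before to 50 bases after the annotated start, 5′ to 3′ on the gene's strand, and was taken from RefSeq (GRCh38.p14). The windows are chr7:141551160-141551459 on the + strand for AGK, chr9:19408759-19409058 on the + strand for ACER2, chr1:211830714-211831013 on the - strand for LPGAT1 and chrX:109733208-109733507 on the - strand for ACSL4. LPGAT1 has 3 annotated starts in the table, of which the most upstream is shown. Capitals mark matches on either strand to a GC box, which is the word GGGCGG, to a CCAAT box, which is named by its letters, or to a CRE half-site, which is the word TGACGT.
AGK: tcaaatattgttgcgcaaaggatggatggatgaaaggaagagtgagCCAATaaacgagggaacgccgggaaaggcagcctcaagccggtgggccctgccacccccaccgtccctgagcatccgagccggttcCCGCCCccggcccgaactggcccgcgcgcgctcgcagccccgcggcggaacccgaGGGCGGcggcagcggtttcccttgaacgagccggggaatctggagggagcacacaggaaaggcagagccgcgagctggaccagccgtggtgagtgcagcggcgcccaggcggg
ACER2: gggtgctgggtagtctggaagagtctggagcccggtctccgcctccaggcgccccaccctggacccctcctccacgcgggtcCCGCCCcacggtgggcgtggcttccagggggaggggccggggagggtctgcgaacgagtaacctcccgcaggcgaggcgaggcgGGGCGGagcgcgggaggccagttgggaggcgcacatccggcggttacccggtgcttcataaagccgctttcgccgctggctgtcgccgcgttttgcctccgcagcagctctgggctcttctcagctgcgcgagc
LPGAT1: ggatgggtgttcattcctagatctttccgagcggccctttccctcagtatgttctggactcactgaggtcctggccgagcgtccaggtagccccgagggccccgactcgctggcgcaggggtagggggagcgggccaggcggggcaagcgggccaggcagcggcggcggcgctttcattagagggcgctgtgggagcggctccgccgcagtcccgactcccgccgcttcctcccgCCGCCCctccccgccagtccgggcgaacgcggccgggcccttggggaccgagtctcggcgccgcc
ACSL4: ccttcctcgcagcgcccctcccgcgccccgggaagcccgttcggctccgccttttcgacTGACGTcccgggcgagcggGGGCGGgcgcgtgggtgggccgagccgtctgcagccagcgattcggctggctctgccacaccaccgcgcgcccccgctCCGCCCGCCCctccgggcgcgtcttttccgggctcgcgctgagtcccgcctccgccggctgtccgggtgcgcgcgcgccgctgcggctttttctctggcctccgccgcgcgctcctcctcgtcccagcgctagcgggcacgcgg

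Windows were found for 5 of the 6 genes, and MBOAT1 was not in the table. The AGK window held 2 GC boxes and 1 CCAAT box, the ACER2 window 2 GC boxes, the LPGAT1 window shown 1 GC box, and the ACSL4 window 3 GC boxes and 1 CRE half-site. ACSL1 has 5 annotated starts, of which the most upstream window held 6 GC boxes, the most downstream 1 GC box and 1 CCAAT box, and the other windows none of these motifs. The other LPGAT1 windows held 3 and 4 GC boxes. Of all 35116 RefSeq start windows of 300 bases, 45% held a GC box, 34.6% a CCAAT box and 7.98% a CRE half-site. The 4 windows shown were richer in G and C, at 68% to 77.7%, than the median window, at 58.7%. An E-box (CACGTG, 7.26% of windows), an E2F site (TTTCCCGC, TTTCGCGC, TTTGCCGC or TTTGGCGC, 3.31%) and a p53 half-site (6.63%) were also searched on both strands, and no window of the 5 genes held any of them. A match describes these letters only, and binding was not measured.

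Each value below is the deposited log2 value of a gene's probe set on 1 array. Fold changes are differences between group means of these log2 values with the moderated standard error (SE) of a limma fit to all 6 arrays, and they understate the change of dim probe sets. Values of different probe sets cannot be set against each other, so only the 3 siRNAs are compared within a gene. In a bulk culture, fewer cells that express a gene and less RNA per cell cannot be told apart.

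MBOAT1, which in biochemical assays joins fatty acids to lysophosphatidylethanolamine and lysophosphatidylserine, differed most. Its log2 values were 7.58 and 7.43 in the siATM arrays, 9.65 and 9.62 in the sip53 arrays and 9.18 and 9.16 in the siNC arrays. The groups did not overlap, and siATM was lowest, siNC intermediate and sip53 highest. The siATM mean was 7.50 ± 0.11 against 9.17 ± 0.02 with siNC (SD, n = 2 each), a 3.18-fold lower level (log2 fold change −1.67, SE 0.07). With sip53 the mean of 9.63 ± 0.02 (SD, n = 2) was 1.38-fold above siNC (0.46, SE 0.07). Between the siRNAs the difference was 4.38-fold, lower with siATM than with sip53 (−2.13, SE 0.07). This was the lowest of all 10640 fold changes tested between siATM and sip53, and the fold change between siATM and siNC was the lowest but 1 of that contrast.

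LPGAT1, an acyltransferase of the endoplasmic reticulum, was lower with both siRNAs and lowest with sip53. It read 9.60 and 9.59 on the log2 scale in the siATM arrays, 8.81 and 8.90 in the sip53 arrays and 9.96 and 9.88 in the siNC arrays, again with no overlap. With sip53 it averaged 8.85 ± 0.06 against 9.92 ± 0.06 with siNC (SD, n = 2 each), which is 2.10-fold lower (−1.07, SE 0.06) and the 7th lowest fold change of that contrast. With siATM it averaged 9.59 ± 0.01 (SD, n = 2), or 1.26-fold lower than siNC (−0.33, SE 0.06). The siATM level lay 1.67-fold above the sip53 level (0.74, SE 0.06). The order of the groups differed between these acyltransferases: siATM had the lowest MBOAT1 and sip53 the lowest LPGAT1.

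ACSL1, the acyl-CoA synthetase best known from fat, liver and heart, had log2 values of 9.37 and 9.35 with siATM, 8.94 and 8.97 with sip53 and 8.94 and 9.14 with siNC. The siATM arrays lay above the other 4, and the sip53 arrays lay within or at the edge of the siNC range. ACSL1 was 1.24-fold higher with siATM than with siNC (0.32, SE 0.08), at 9.36 ± 0.02 against 9.04 ± 0.14 (SD, n = 2 each). The nearest arrays of these groups were 0.20 apart, and so were the 2 siNC arrays from each other. The sip53 mean of 8.95 ± 0.02 (SD, n = 2) was −0.09 (SE 0.08) from siNC, a difference smaller than the spread of the siNC arrays.

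ACSL4 prefers arachidonic acid and other polyunsaturated fatty acids, and the phospholipids made from its products are the ones that peroxidise in ferroptosis. Its log2 values were 9.97 and 9.89 with siATM, 9.80 and 9.69 with sip53 and 10.06 and 10.17 with siNC. The order was siNC, siATM, sip53 from high to low, and neighbours in that order were close: siATM lay 0.09 from the nearest siNC array and 0.09 from the nearest sip53 array, no more than the gap between 2 arrays of a group (0.09 to 0.11). With sip53 the mean was 9.75 ± 0.08 against 10.11 ± 0.07 with siNC (SD, n = 2 each), or 1.29-fold lower (−0.37, SE 0.07). With siATM it was 9.93 ± 0.06 (SD, n = 2), or 1.14-fold lower than siNC (−0.18, SE 0.07).

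AGK phosphorylates monoacylglycerol and diacylglycerol in mitochondria, and the protein is also a subunit of the TIM22 complex, which inserts carrier proteins into the inner membrane. The gene read 8.48 and 8.51 with siATM, 9.47 and 9.45 with sip53 and 9.18 and 9.15 with siNC (log2 values). The groups were apart by far more than their replicates, which differed by 0.02 to 0.04. AGK was 1.59-fold lower with siATM than with siNC (−0.67, SE 0.06), at 8.50 ± 0.03 against 9.17 ± 0.02 (SD, n = 2 each). With sip53, at 9.46 ± 0.01 (SD, n = 2), it was 1.22-fold higher than siNC (0.29, SE 0.06). The siATM level was 1.95-fold below the sip53 level (−0.96, SE 0.06).

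ACER2 has been described as a target that wild-type p53 activates, and its product feeds the sphingosine and sphingosine-1-phosphate pool. It was the dimmest of the 6 probe sets and the one with the widest replicates, at 6.65 and 6.43 with siATM, 7.60 and 7.88 with sip53 and 6.81 and 6.83 with siNC (log2 values). The sip53 arrays stood above the other 4. Their mean was 7.74 ± 0.20 against 6.82 ± 0.01 with siNC (SD, n = 2 each), 1.89-fold higher (0.92, SE 0.11) and the 9th highest fold change of that contrast. The siATM mean of 6.54 ± 0.15 (SD, n = 2) was 1.22-fold below siNC (−0.28, SE 0.11). The nearest siATM and siNC arrays were 0.17 apart, less than the 0.21 between the siATM arrays themselves. Between the siRNAs ACER2 was 2.29-fold lower with siATM (−1.20, SE 0.11).

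**Figure D1:**
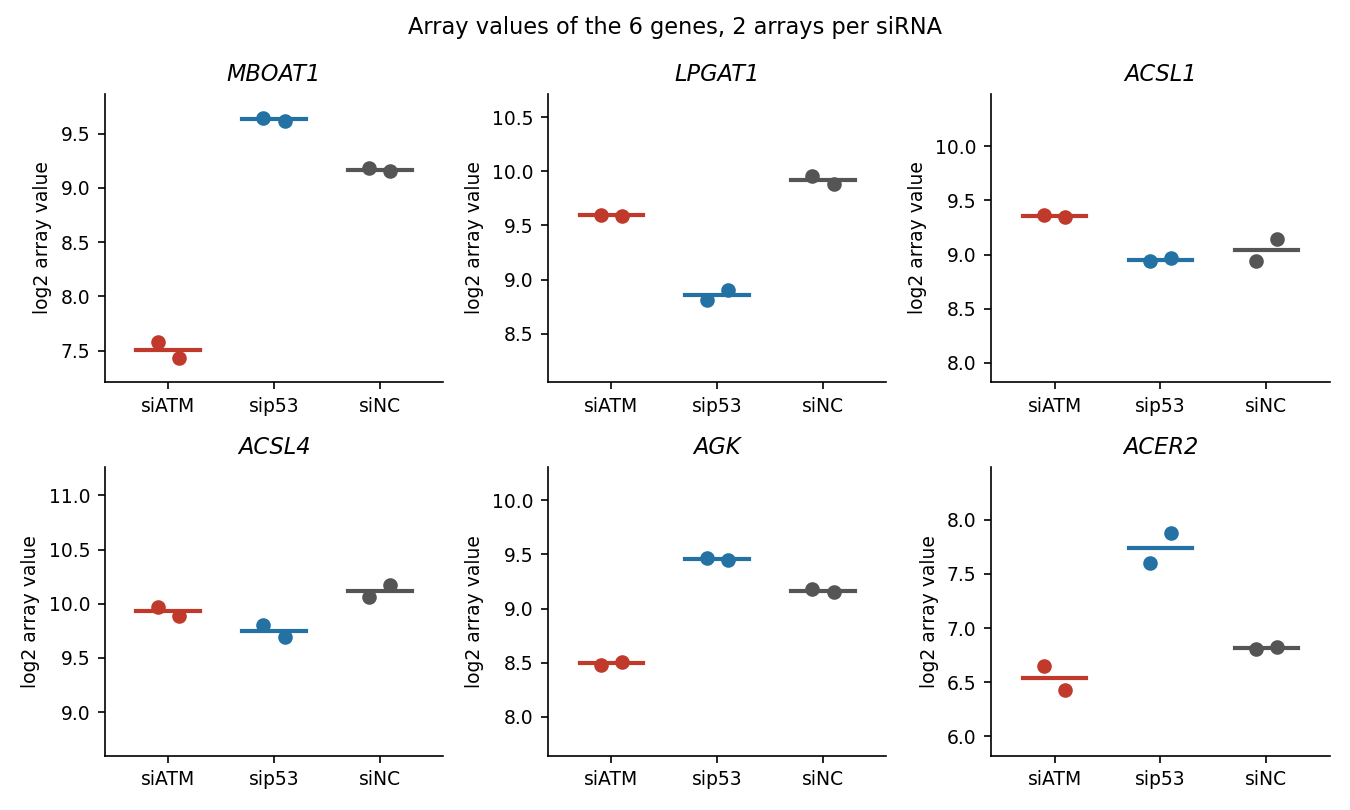
Deposited log2 array value (y axis) of each of the 6 genes in the siATM, sip53 and siNC arrays (x axis); points are single arrays, lines are group means, and every panel spans the same number of log2 units. MBOAT1, AGK and ACER2 are lowest with siATM and highest with sip53, LPGAT1 and ACSL4 are highest with siNC and lowest with sip53, and ACSL1 stands out with siATM.

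Of the 6 genes, 4 passed adjusted p below 0.05 between siATM and siNC (1 higher, 3 lower), where 25.5% of the 10640 tested genes did (12.5% higher, 13% lower). Between sip53 and siNC 5 passed (3 higher, 2 lower), against 10.6% of all tested genes (5.47% higher, 5.11% lower). Between siATM and sip53 5 passed (2 higher, 3 lower), against 30.3% (14% higher, 16.3% lower). The arrays of the groups did not overlap for 6, 5 and 6 of the genes in these contrasts, and over all tested genes for 62.7%, 58.9% and 65.4%. Because the genes were picked with these contrasts in view, nothing is read from their counts. The contrasts against siNC share the siNC arrays. Leaving out any 1 array, or using another filter or scaling, did not turn the direction of any of the 18 differences except that of ACSL1 between sip53 and siNC, which ranged from −0.19 to 0.01.

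The closest relatives of the 6 genes were not picked for their values, although the list was drawn up with earlier results of these data known. Among the other lysophospholipid acyltransferases, LPCAT2 fell 1.30-fold with siATM, at 10.95 and 10.81 against 11.23 and 11.28 with siNC (log2 fold change −0.38, SE 0.07, limma adjusted p = 0.00661). LPCAT2 makes phosphatidylcholine and platelet-activating factor. LPCAT1, which makes dipalmitoyl phosphatidylcholine in lung, also fell (−0.20, SE 0.06, adjusted p = 0.0413), and LPCAT3, the main enzyme that puts polyunsaturated fatty acids into phospholipids, rose (0.32, SE 0.07, adjusted p = 0.0191). LPCAT4 (0.12) and MBOAT7 (0.06), the phosphatidylinositol acyltransferase, did not pass with siATM. With sip53 none of these 5 passed, with log2 fold changes from −0.09 for LPCAT4 to 0.24 for LPCAT3 (SE 0.07, adjusted p = 0.0895). Between siATM and sip53 LPCAT3 did not pass either (0.08, SE 0.07, adjusted p = 0.447). LPCAT1 lost its call without siATM replicate 2 or any 1 of the sip53 and siNC arrays (adjusted p up to 0.150), and LPCAT3 without either siATM array or siNC replicate 1 (up to 0.0992).

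Of the other synthetases, ACSL5 did not pass against siNC with siATM (0.11) or sip53 (0.07), ACSL6 was too dim to be tested, and ACSL3 was not named in the annotation used. Among ceramidases, ACER3, the alkaline ceramidase that prefers unsaturated long-chain ceramides, fell 1.40-fold with siATM, at 8.14 and 7.90 against 8.55 and 8.46 with siNC (−0.49, SE 0.09, adjusted p = 0.00674). With sip53 its log2 fold change was 0.06 (SE 0.09, not passed), while that of ACER2 was 0.92. ASAH1, the lysosomal acid ceramidase, rose slightly with sip53 (0.22, SE 0.05, adjusted p = 0.0455) but lost its call without any 1 of the sip53 and siNC arrays (adjusted p up to 0.216). ACER1 was too dim to be tested and MBOAT2 was not named in the annotation used.

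**Figure D2:**
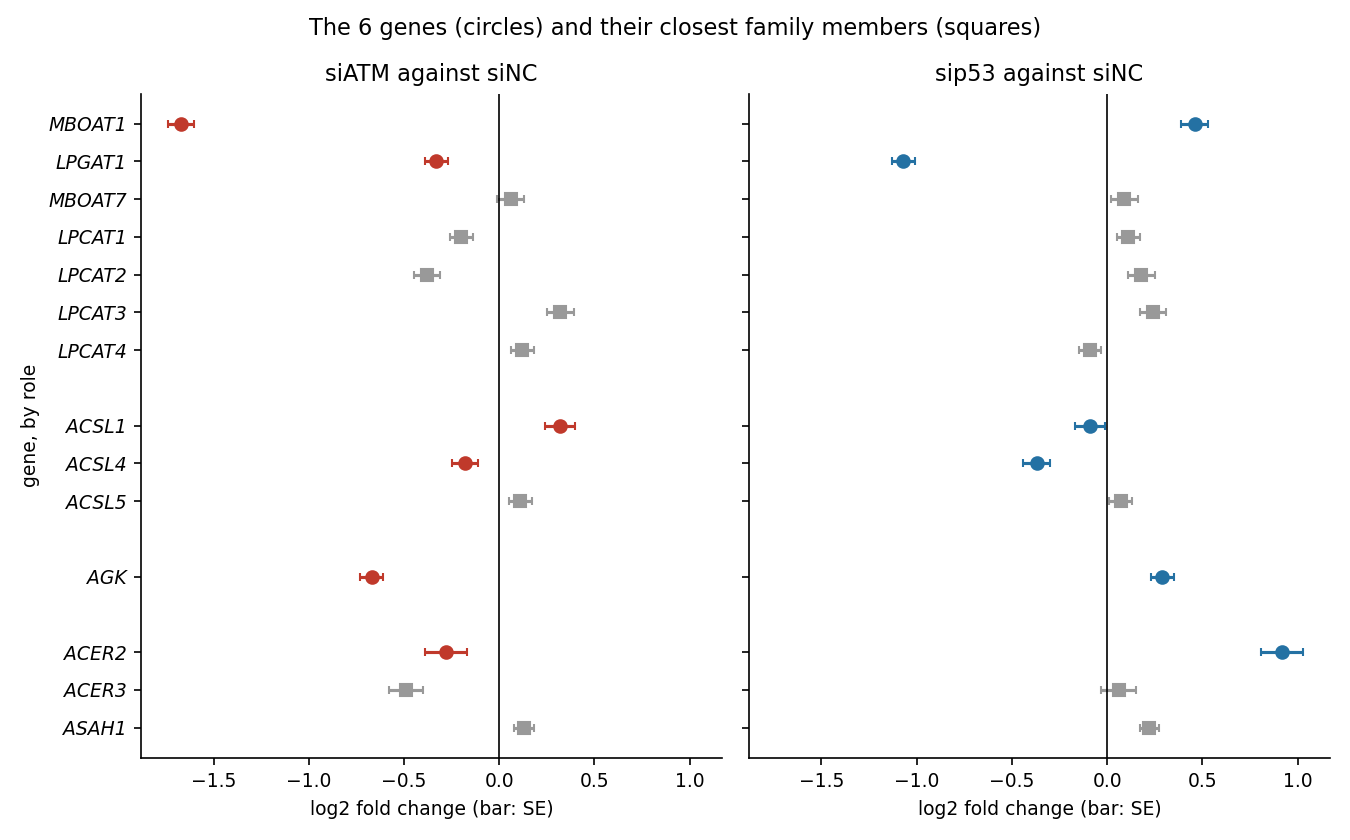
Log2 fold change against siNC (x axis, bars are the SE of the limma fit) of the 6 genes (circles) and of their tested family members (squares), ordered by role, with siATM on the left and sip53 on the right. MBOAT1 stands at −1.67 and AGK at −0.67 with siATM, and LPGAT1 at −1.07 and ACER2 at 0.92 with sip53. The largest change among the relatives shown is that of ACER3, −0.49 with siATM. The 6 genes were chosen with their values known, so nothing is read from how they stand against the relatives.

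A wider set of 10 lists of lipid genes held 253 genes beside the 6, of which 156 were named on the array, 133 were tested and 23 were too dim. The lists were drawn up with earlier results of these data known. Nothing is therefore read from how their shares stand against those of all tested genes. With siATM 28 of the 133 were higher and 26 lower than with siNC (40.6% passed, against 25.5% of all tested genes), with a median log2 fold change of 0.02 against 0.00 over all genes. With sip53 10 were higher and 7 lower (12.8%, against 10.6%), with a median of 0.04 against 0.01. When all arrays were given the same median over tested genes, the sip53 split was 7 higher and 10 lower. Between siATM and sip53 27 were higher and 32 lower (44.4%, against 30.3%).

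Each of these counts was smaller with any 1 array of the groups compared left out. With siATM against siNC the count of 54 fell to 29 without siNC replicate 1 and to 24 without siNC replicate 2. With sip53 against siNC the count of 17 fell to 5 without sip53 replicate 1, 3 without sip53 replicate 2, 4 without siNC replicate 1 and 5 without siNC replicate 2. With siATM against sip53 the count of 59 fell to 33 without sip53 replicate 1 and to 37 without sip53 replicate 2. Leaving out an siATM array made the sip53 count 18 in place of 17.

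**Figure D3:**
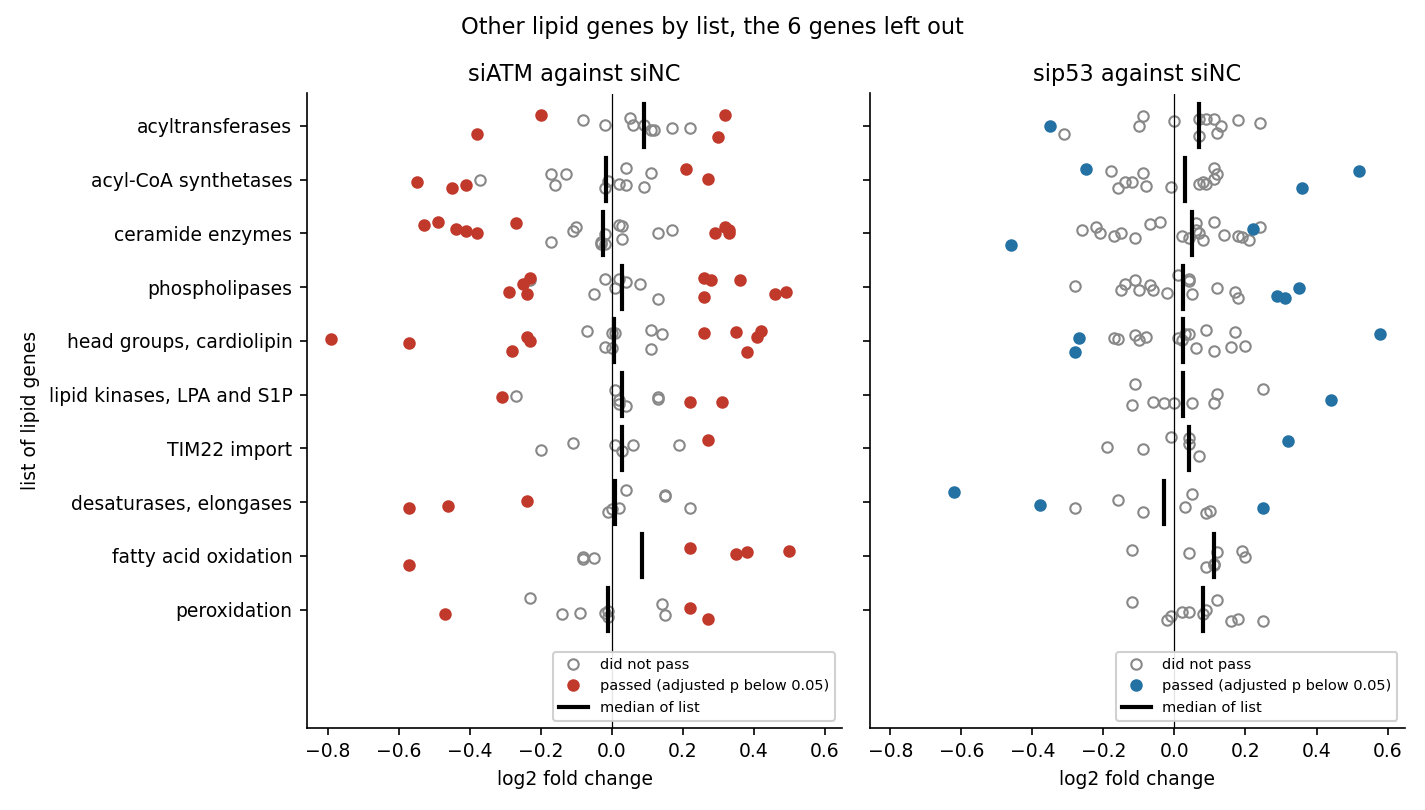
Log2 fold change against siNC (x axis) of the tested lipid genes in each of 10 lists (y axis), the 6 genes left out, with siATM on the left and sip53 on the right; filled points passed the test and black bars are list medians. With siATM filled points lie on both sides of 0 in most lists, and there are 54 genes with a filled point on the left and 17 on the right.

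The new synthesis of phospholipids held the largest change among these other genes with siATM. Of 18 tested genes, 5 were higher and 5 lower (25.5% of all genes passed), with a median of 0.01. SELENOI, the ethanolamine phosphotransferase that makes phosphatidylethanolamine, had log2 values of 8.67 and 8.51 with siATM against 9.41 and 9.36 with siNC and fell 1.73-fold (−0.79, SE 0.07, adjusted p = 0.000626). CEPT1, which makes phosphatidylethanolamine and phosphatidylcholine by the same step, fell 1.49-fold (−0.57, SE 0.06, adjusted p = 0.00123). PTDSS2, a phosphatidylserine synthase, rose (0.42, SE 0.06, adjusted p = 0.00268), as did CDS1, a CDP-diacylglycerol synthase (0.41, SE 0.06, adjusted p = 0.00414).

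With sip53 1 of these 18 genes was higher and 2 lower (5.47% and 5.11% of all tested genes were). CDS1 read 8.06 and 8.04 with sip53 against 7.42 and 7.52 with siNC, a 1.50-fold rise (0.58, SE 0.06, adjusted p = 0.00296). CRLS1, the cardiolipin synthase, fell (−0.28, adjusted p = 0.0345), and so did CEPT1 (−0.27, adjusted p = 0.0380). CRLS1 and CEPT1 lost these calls without any 1 of the sip53 and siNC arrays (adjusted p up to 0.201 and 0.186). SELENOI did not pass with sip53 (0.20), and between the siRNAs it was 1.99-fold lower with siATM (−0.99, SE 0.07, adjusted p = 0.000269).

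Of 24 listed acyltransferase genes, 9 were not named in the annotation used, every listed AGPAT gene among them. Of the 13 tested, 2 were higher and 2 lower with siATM (12.5% and 13% of all tested genes were). With sip53 0 were higher and 1 lower (5.47% and 5.11% of all tested genes were). In limma at an unadjusted p below 0.05, 2 were higher and 2 lower with sip53. Beside the LPCAT genes, DGAT1, which makes triacylglycerol, rose with siATM (0.30, SE 0.06, adjusted p = 0.0122) but lost its call with siNC replicate 2 left out (adjusted p = 0.0764). GPAT3, a glycerol-3-phosphate acyltransferase, fell with sip53 (−0.35, SE 0.06, adjusted p = 0.0109), and lost its call without any 1 of the sip53 and siNC arrays (adjusted p up to 0.0883).

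Of 16 tested acyl-CoA synthetase and thioesterase genes, 2 were higher and 3 lower with siATM, and 2 higher and 1 lower with sip53. Over all tested genes 12.5% were higher and 13% lower with siATM, and 5.47% and 5.11% with sip53. ACSS3, a short-chain acyl-CoA synthetase of mitochondria, fell 1.47-fold with siATM (−0.55, SE 0.05, adjusted p = 0.000941) and 1.19-fold with sip53 (−0.25, SE 0.05, adjusted p = 0.0310). ACBD5, a peroxisomal acyl-CoA binding protein, fell with siATM (−0.45, SE 0.09, adjusted p = 0.0101), as did the mitochondrial thioesterase gene ACOT2 (−0.41, SE 0.10, adjusted p = 0.0228). ACOT13, another thioesterase gene, rose with siATM (0.27, adjusted p = 0.0288) and with sip53 (0.52, SE 0.07, adjusted p = 0.00654), and ACSS2, the cytosolic acetyl-CoA synthetase gene, rose with sip53 (0.36, adjusted p = 0.0120).

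ACBD5 lost its siATM call without either siNC array (adjusted p = 0.0521), ACOT2 without siATM or siNC replicate 1 (up to 0.115), and ACOT13 without either siATM array or siNC replicate 2 (up to 0.155). ACOT13 lost its sip53 call without sip53 replicate 2 (0.0558), and ACSS2 and ACSS3 lost theirs without any 1 of the sip53 and siNC arrays (up to 0.0935 and 0.169).

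Of 40 listed genes of ceramide and sphingosine enzymes beside ACER2, 16 were not named in the annotation used. Of the 22 tested, 4 were higher and 6 lower with siATM (12.5% and 13% of all tested genes were). The list median was −0.03. SGPL1, the lyase that ends the pathway by cleaving sphingosine-1-phosphate, fell 1.36-fold (−0.44, SE 0.06, adjusted p = 0.00287). SGMS2, a sphingomyelin synthase (−0.53, SE 0.11, adjusted p = 0.0126), and SAMD8, the related ceramide phosphoethanolamine synthase (−0.41, SE 0.06, adjusted p = 0.00352), fell too. SGMS2 lost its call with siNC replicate 2 left out, as did CERK (0.33, adjusted p = 0.00696). All other calls with siATM that the naming rule gives for this list remained. SGMS1, the other sphingomyelin synthase gene, lies outside that rule and was higher with siATM (0.33, SE 0.07, adjusted p = 0.0108).

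With sip53 1 of the 22 was higher, ASAH1, and 1 lower (5.47% and 5.11% of all tested genes were). UGCG, which turns ceramide into glucosylceramide, read 10.69 and 10.58 with sip53 against 11.12 and 11.07 with siNC, a 1.38-fold fall (−0.46, SE 0.06, adjusted p = 0.00605). It lost its call without sip53 replicate 2 or siNC replicate 1 (adjusted p up to 0.0554). Between the siRNAs UGCG was 1.41-fold higher with siATM (0.50, SE 0.06, adjusted p = 0.00136). ACER3 was 1.46-fold lower with siATM than with sip53 (−0.55, adjusted p = 0.00318), GALC, the lysosomal galactosylceramidase, 1.40-fold lower (−0.49, adjusted p = 0.00102), and CERK, the ceramide kinase, 1.36-fold higher (0.44, adjusted p = 0.00177).

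Of 36 listed genes of phospholipases and related lipases, 17 were not named in the annotation used, every listed PLA2G gene among them. Of the 18 tested, 6 were higher and 4 lower with siATM (12.5% and 13% of all tested genes were). The list median was 0.03. LYPLAL1, a lysophospholipase-like protein, rose 1.41-fold (0.49, SE 0.07, adjusted p = 0.00345). PNPLA3, a triglyceride and phospholipid remodelling enzyme of liver (0.46, SE 0.10, adjusted p = 0.0151), and PLAAT2 (0.36, SE 0.07, adjusted p = 0.0105) rose, and DDHD2, a lipase best known from brain, fell (−0.29, SE 0.08, adjusted p = 0.0408). PNPLA3 lost its call without siATM replicate 2 or siNC replicate 1 (up to 0.0850), PLAAT2 without siNC replicate 1 (0.0665) and DDHD2 with siATM replicate 2, siNC replicate 1 or siNC replicate 2 left out (up to 0.156).

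With sip53 3 of these genes were higher and 0 lower (5.47% and 5.11% of all tested genes were). In limma at an unadjusted p below 0.05, 5 were higher and 3 lower. The 3 that passed were LYPLA1, a lysophospholipase that also removes palmitate from proteins (0.35, adjusted p = 0.00929), ABHD4 (0.31, adjusted p = 0.0169) and LYPLAL1 (0.29, adjusted p = 0.0462). All 3 lost their call without any 1 of the sip53 and siNC arrays (adjusted p up to 0.0764, 0.126 and 0.235).

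AGK shares the TIM22 complex with TIMM22 and with small chaperones of the intermembrane space. Of the 7 other tested genes of this complex and its chaperones, 1 was higher and 0 lower with siATM and likewise with sip53. Over all tested genes 12.5% were higher and 13% lower with siATM, and 5.47% and 5.11% with sip53. In limma at an unadjusted p below 0.05, the list had 2 and 0 with siATM and 1 and 1 with sip53. TIMM22, the channel subunit, had log2 fold changes of 0.06 with siATM and 0.07 with sip53 and did not pass, while AGK stood at −0.67 and 0.29. The gene that passed was TIMM8B in both (0.27 and 0.32, adjusted p = 0.0324 and 0.0380), and it lost the siATM call without either siATM array or siNC replicate 2 (up to 0.169) and the sip53 call without any 1 of the sip53 and siNC arrays (up to 0.204).

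Of 10 tested genes for lysophosphatidic acid and sphingosine-1-phosphate signalling and its phosphatases, 2 were higher and 1 lower with siATM. Over all tested genes 12.5% were higher and 13% lower. Those of the list that passed were the phosphatase genes PLPP1 (0.31, adjusted p = 0.00990) and PLPP2 (−0.31, adjusted p = 0.00727) and the receptor gene LPAR1 (0.22, adjusted p = 0.0327). LPAR1 lost its call whichever array was left out (adjusted p up to 0.164), PLPP1 without either siNC array (up to 0.0576) and PLPP2 without siNC replicate 2 (0.0513). With sip53 1 passed and was higher, S1PR2, a receptor of sphingosine-1-phosphate (0.44, SE 0.06, adjusted p = 0.00666), and it lost its call without replicate 2 of sip53 or of siNC (up to 0.0610).

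Desaturases and elongases set the unsaturation and chain length of the fatty acids. Of 10 tested genes, 0 were higher and 3 lower with siATM (3 and 3 in limma at an unadjusted p below 0.05), and 1 higher and 2 lower with sip53. The share that passed with siATM was 30% of the list, close to the 25.5% of all tested genes. SCD5, a stearoyl-CoA desaturase, fell with both, 1.37-fold with siATM (−0.46, SE 0.07, adjusted p = 0.00384) and 1.54-fold with sip53 (−0.62, SE 0.07, adjusted p = 0.00318), and both calls remained when any 1 array was left out. With siATM ELOVL7 (−0.57, adjusted p = 0.00527), an elongase, and FADS1 (−0.24, adjusted p = 0.0193), the delta-5 desaturase of arachidonic acid synthesis, were lower. The siATM mean of ELOVL7 was 5.90 against 6.47 with siNC, and 5.90 is below the limit of 5.96 for testing, so ELOVL7 entered the test through the other groups. FADS1 lost its call when siATM replicate 1, siNC replicate 1 or siNC replicate 2 was left out (up to 0.0884).

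With sip53 FADS3 was lower (−0.38, adjusted p = 0.0106) and ELOVL6, which elongates palmitate, was higher (0.25, adjusted p = 0.0372). FADS3 lost its call without either sip53 array or siNC replicate 1 (adjusted p up to 0.0761), and ELOVL6 without any 1 of the sip53 and siNC arrays (up to 0.206).

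Of 20 listed genes of mitochondrial fatty acid oxidation, 12 were not named in the annotation used, HADHA, HADHB and ACADVL among them. Of the 8 tested, 4 were higher and 1 lower with siATM (12.5% and 13% of all tested genes were). With sip53 0 passed the adjusted limma test, and at an unadjusted p below 0.05 2 were higher and 0 lower. CPT1A, the carnitine palmitoyltransferase that uses long-chain acyl-CoA, rose 1.42-fold, with log2 values of 10.08 and 10.01 with siATM against 9.52 and 9.56 with siNC (0.50, SE 0.06, adjusted p = 0.00215). Its brain form CPT1C fell 1.48-fold (−0.57, SE 0.06, adjusted p = 0.00112). ECI1, an enoyl-CoA isomerase (0.38, adjusted p = 0.00402), and ETFDH, which passes electrons to ubiquinone (0.35, adjusted p = 0.0125), were higher. ETFDH lost its call without either siNC array (adjusted p up to 0.0684).

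Of 25 listed genes of phospholipid peroxidation and ferroptosis, 12 were not named in the annotation used, SLC7A11 and AIFM2 among them. Of the 11 tested, 2 were higher and 1 lower with siATM (12.5% and 13% of all tested genes were). With sip53 0 passed the adjusted limma test, and at an unadjusted p below 0.05 3 were higher and 0 lower. GPX4, the peroxidase that reduces phospholipid hydroperoxides, had log2 fold changes of 0.14 with siATM and 0.02 with sip53 and did not pass. GCH1, which starts tetrahydrobiopterin synthesis, was lower with siATM (−0.47, adjusted p = 0.00999), and CYB5R1 (0.27, adjusted p = 0.0164) and the transcription factor gene NFE2L2 (0.22, adjusted p = 0.0333) were higher. GCH1 lost its call without replicate 2 of siATM or of siNC (up to 0.0530), CYB5R1 with siATM replicate 1, siNC replicate 1 or siNC replicate 2 left out (up to 0.0889), and NFE2L2 without any 1 array except siATM replicate 2 (up to 0.142). Of the tested lipid genes given here, GPX4 and TIMM22 were singled out for their roles and not by the size of their change. SGMS1 also lies outside the naming rule.

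In the direct comparison of the siRNAs, SELENOI, ACER3, UGCG, GALC and CERK have been given above. Of the other genes that the naming rule gives for this contrast, those with a log2 difference of at least 0.36 in size follow, and the rest lay between −0.32 and 0.34. Lower with siATM than with sip53 were GCH1 at 1.65-fold (−0.72, adjusted p = 0.00145), ACBD5 at 1.48-fold (−0.56, adjusted p = 0.00315) and LPCAT2 at 1.47-fold (−0.56, adjusted p = 0.00109). CPT1C (−0.45), PLAAT4 (−0.41), PTDSS1 (−0.40), ETNK2 (−0.40), S1PR2 (−0.40), ACSS2 (−0.38) and LYPLA1 (−0.37) were lower too, with adjusted p up to 0.00359. Higher with siATM than with sip53 were PNPLA3 (0.47), CDIPT (0.45), the phosphatidylinositol synthase gene, FADS3 (0.42), GPAT3 (0.40), CPT1A (0.39), PNPLA7 (0.37) and ACOT8 (0.36), with adjusted p up to 0.0107. PNPLA3 alone among these 17 lost the call when 1 array was left out, without siATM or sip53 replicate 2 (adjusted p up to 0.0651).

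The genes nearest to each of the 6 were found by the Euclidean distance between profiles over the 6 arrays, each centred on its own mean, among 9789 tested genes without non-coding symbols. For AGK these were SAMTOR (distance 0.06), MMD (0.08) and ABHD10 (0.12), with log2 fold changes from −0.65 to −0.73 with siATM and from 0.28 to 0.31 with sip53. For ACER2 they were SYT2 (0.22), TXNDC16 (0.33) and ADM (0.37), and SYT2 had −0.30 with siATM and 0.90 with sip53. For MBOAT1 they were PRRG4 (0.56), GBP4 (0.78) and QNG1 (0.87), which shared its low siATM level. With sip53 their log2 fold changes were 0.03, −0.05 and −0.09, against 0.46 for MBOAT1. Profiles were not scaled, so a gene with large differences, such as MBOAT1, tends to lie farther from its nearest genes.

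For LPGAT1 the nearest were MTMR6 (0.22), RASSF3 (0.23) and STC1 (0.23), with log2 fold changes with sip53 of −0.94, −0.94 and −0.95. For ACSL4 they were QRSL1 (0.06), CCNG1 (0.07) and RBPJ (0.09), and for ACSL1 NICN1 (0.09), FLOT1 (0.10) and VWA1 (0.10). With so few arrays, and with small differences for ACSL1 and ACSL4, a short distance is easily reached, and it is given as a description.

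**Figure D4:**
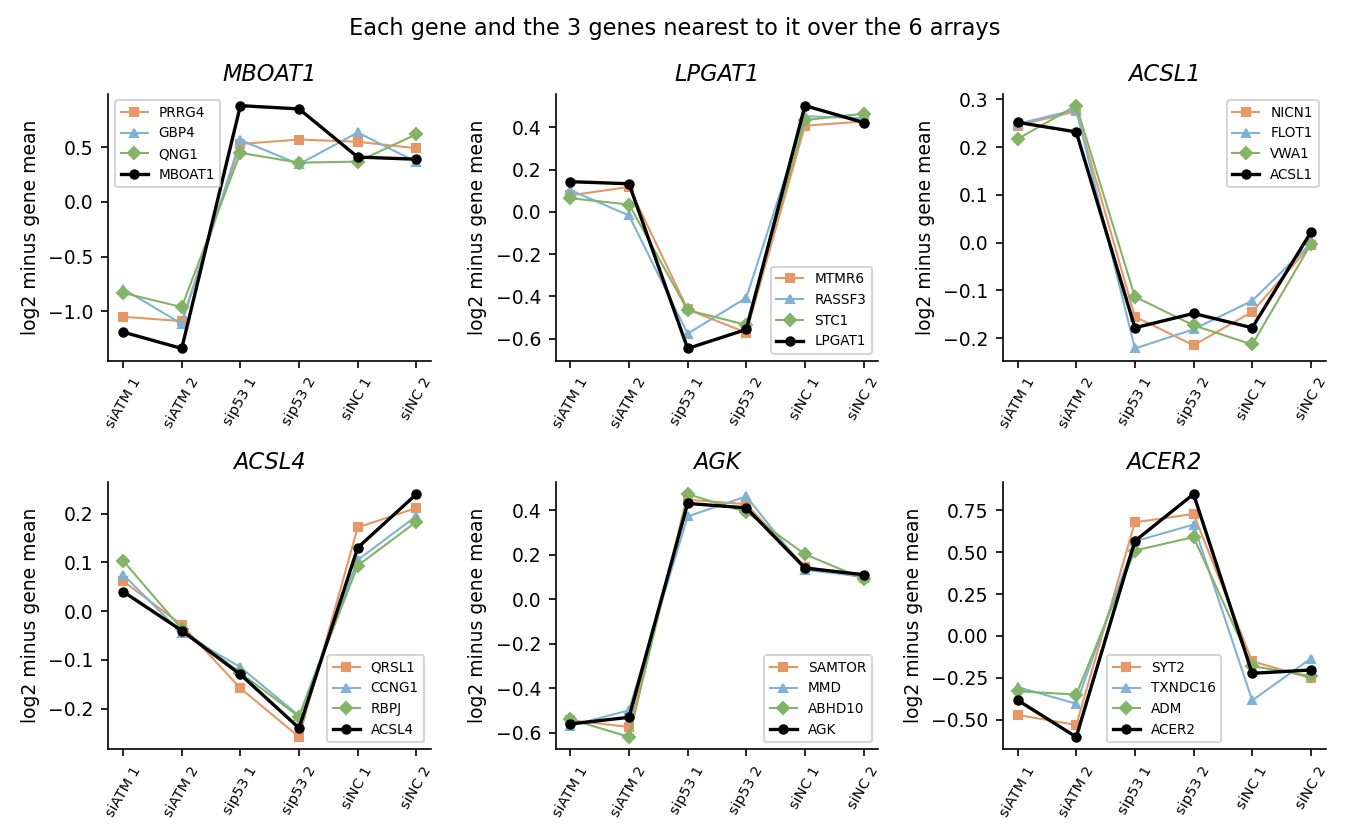
Log2 value minus the gene's own mean (y axis) over the 6 arrays (x axis) for each of the 6 genes in black and the 3 genes nearest to it in colour. The AGK profile is matched to within a distance of 0.12 by all 3 of its nearest genes. MBOAT1 lies at least 0.56 from each of the 9789 genes compared. Profiles are not scaled, so distances tend to grow with the size of a gene's differences.

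The 6 genes lie on 6 different chromosomes. Of the 12 nearest genes that RefSeq annotates as protein-coding, chosen by position and outside the rule for named genes, 8 were tested and 4 were not named in the annotation used. With sip53 0 of the 8 passed in limma (adjusted p from 0.178 for KCNE5 to 0.956 for RPS6), and 1 was lower at an unadjusted p below 0.05. The neighbours of LPGAT1 were NEK2 and INTS7, with log2 fold changes of −0.10 and 0.07 with sip53, where LPGAT1 stood at −1.07. With siATM 4 were lower (13% of all tested genes were), namely NEK2 (−1.11, adjusted p = 0.000122), CENPU beside ACSL1 (−0.58, adjusted p = 0.00288), TMEM164 beside ACSL4 (−0.46, adjusted p = 0.00173) and INTS7 (−0.32, adjusted p = 0.0106). The neighbours of AGK, TMEM178B and DENND11, stood at 0.00 and 0.11 with siATM and did not pass.

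Over the whole table, array medians lay between 5.95 and 5.98 on the log2 scale, and the SD of the difference between 2 arrays over the tested genes was 0.115 to 0.148 within a group and 0.205 to 0.291 between groups. Of 10640 genes, 2708 passed between siATM and siNC (1325 higher, 1383 lower), 1126 between sip53 and siNC (582 higher, 544 lower) and 3219 between siATM and sip53 (1487 higher, 1732 lower). Given the same array medians, the sip53 split was 410 higher and 668 lower. Fewer passed in each contrast with any 1 array of the groups compared left out. In the contrasts of siATM, the loss was smaller without an siATM array than without an array of the other group compared. Between sip53 and siNC more genes passed without an siATM array. Of 7 markers typical of mesenchymal breast cancer cells, 6 were named and all 6, VIM, CD44, MSN, AXL, FOSL1 and S100A4, lay above the median probe set. Of 5 luminal markers KRT19 and EPCAM lay above it and ESR1, PGR and FOXA1 below, and the fibroblast marker DCN lay below. Of the endothelial markers named, CLDN5 lay above and VWF below. The summed log2 level of the luminal list was 35.0 to 36.1 with siATM, 35.4 to 35.5 with sip53 and 35.5 with siNC, and that of the mesenchymal list 67.9 to 68.2 over all arrays. A sum can hide opposite shifts. S100A4 averaged 9.69 with siATM against 9.30 with siNC, and FOSL1 10.73 against 10.98. CD68, the only leukocyte marker named, read 12.1 with siATM, 11.8 with sip53 and 11.9 to 12.0 with siNC, and its part in the results was not tested.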

How the data were processed

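Total RNA of 6 samples was hybridised to Affymetrix Human Gene 2.0 ST arrays, per the labels. The authors' deposited table holds log2 values per probe set, a scale read from the values (1.33 to 14.2). Background correction, probe summary, normalization and annotation build are not given in the sources used here. Ranked log2 values differed between arrays by a mean of 0.0325, so the deposited arrays had nearly the same distribution, which removes any change in total RNA. ATM and p53 transcripts are not reported here. No detection call, scan date or batch was available to test.

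The supplied platform annotation gave 1 symbol to 16098 of 53617 probe sets and several to 0, and 37519 were unnamed here. Of several probe sets of a gene the brightest was used. Genes with a mean log2 value of at least 5.96, the median over probe sets, were tested. limma (version 3.58.1, R 4.3.3) fitted the 3 group means to all 6 arrays (3 residual and, after eBayes, 7.29 total degrees of freedom), with Benjamini-Hochberg adjustment over the 10640 genes tested, two-sided, and calls at adjusted p below 0.05. The procedure was tested on simulated arrays.

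The 6 genes and the lists were chosen with earlier results of these data known. Beside the 6 and their family members, up to 4 called genes with the largest change per list and contrast were named, and the 3 nearest profiles per gene. Equal replicate numbers were not treated as pairs: the labels name no shared batch, and deviations of equal numbers correlated at 0.03 to 0.12 across genes. The alternatives were other filters, scalings, variance models, probe-set rules, sample sets, a replicate block and leaving out each array.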

Additional observations from a re-analysis of the deposited data

How the results depend on the processing

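Direction held for the 6 genes in all 3 contrasts and under every alternative run, except ACSL1 between sip53 and siNC (−0.19 to 0.01). MBOAT1 ranged from −1.74 to −1.59 with siATM, LPGAT1 from −1.11 to −1.02 and ACER2 from 0.78 to 1.06 with sip53, and AGK from −0.69 to −0.65 with siATM and 0.26 to 0.31 with sip53. ACER2 between siATM and siNC ranged from −0.39 to −0.17, and ACER2 was too dim to be tested with the filter at the 70th percentile. Centring moved 3 differences by more than the replicate spread, MBOAT1 (0.43) and AGK (0.26) between sip53 and siNC and ACSL1 between the siRNAs (0.42).

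Without the filter on dim genes, 481 genes and 9 lipid genes passed between sip53 and siNC and 34 lipid genes between siATM and siNC, with more and dimmer genes tested. With trend and robust moderation the sip53 counts were 1742 genes and 28 lipid genes; the cause was not tested. With 1 array left out, genes called ranged from 1437 to 2226 (siATM against siNC), 272 to 1242 (sip53 against siNC) and 1842 to 2852 (siATM against sip53), and lipid genes from 24 to 44, 3 to 18 and 33 to 50, from fewer arrays. In such fits the group left with 1 array is assumed to vary like the others. Of the named lipid genes called, 17 of 42, 2 of 17 and 26 of 45 kept their call in all 6 such fits. With the replicate number as a block, 2696, 1001 and 3218 genes and 54, 16 and 56 lipid genes passed. No called gene named here turned direction. The number of arrays limits the precision, and signal over background was not available.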
